A study of Rattus norvegicus with 12 samples.

Results

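The complement genes C3, C1r, C1s, C2, Cfb, Serping1 and Cd59 were followed in cultured rat fibroblast-like synoviocytes (FLS), the connective tissue cells that line the joint. They were taken from the deposited expression table by gene name. Of the 7 genes, 6 had a record, with 1 record each, among 22442 records in all. Cfb, which codes for factor B, had no record under its name and was not analysed here. All 6 measured genes passed the filter on low values, which kept the 11611 records that averaged 1 FPKM or more across the libraries. FPKM counts sequenced fragments per length of transcript and per depth of library.

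The FLS came from male Sprague Dawley rats with adjuvant arthritis (AA), a joint inflammation raised by injecting complete Freund's adjuvant into a hind paw pad. They were grown from synovial tissue and used at passage 3. All 12 libraries share this background, so there is no library from a rat without arthritis. The FCA group was kept in DMEM medium alone, and the other groups were given taurochenodeoxycholic acid (TCDCA), a taurine-conjugated bile acid, at 0.1 µM (AT01), 1 µM (AT1) or 10 µM (AT10) for 12 h. Each group had 3 libraries. The study calls the replicate numbers sets of repeated studies, without saying whether a set had its own rats or cultures, so p-values measure the spread between these libraries, which may be technical.

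Complement is a chain of plasma proteins that tags microbes and damaged cells. In the classical pathway C1q binds a target and switches on the proteases C1r and C1s, and C1s then cuts C4 and C2 to build an enzyme that splits C3. Factor B serves the same purpose in the alternative pathway, C1 inhibitor (the product of Serping1) blocks C1r and C1s, and CD59 on the cell surface stops the final membrane attack complex. The liver makes most circulating complement, but fibroblasts, synovial ones included, also make C1r, C1s, C3 and C1 inhibitor.

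The 250 bases before the start of C3 and C1r are shown for context, since these were the 2 of the 7 genes that matched by symbol in the promoter table used here. The sequences are from RefSeq, build GRCr8, and those of the other 5 genes were not analysed here. C3 lies on the minus strand at chr9:2201340-2201589 and C1r on the plus strand at chr4:159098763-159099012. Capitals mark the match to TTGCNNAA on either strand, a motif of the C/EBP type.
C3: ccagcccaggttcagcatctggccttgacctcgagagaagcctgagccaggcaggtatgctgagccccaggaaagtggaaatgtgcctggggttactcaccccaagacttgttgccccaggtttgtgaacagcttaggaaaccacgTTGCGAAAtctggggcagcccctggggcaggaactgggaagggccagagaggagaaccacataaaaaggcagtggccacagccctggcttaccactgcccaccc
C1r: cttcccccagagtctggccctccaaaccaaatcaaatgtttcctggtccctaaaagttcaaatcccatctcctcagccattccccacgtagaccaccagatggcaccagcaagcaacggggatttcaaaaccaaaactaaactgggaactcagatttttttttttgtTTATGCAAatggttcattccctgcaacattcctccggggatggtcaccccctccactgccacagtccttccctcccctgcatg
Each of the 2 sequences held 1 such match, from base -104 to -97 before the start of C3 and from base -83 to -76 before the start of C1r. Among 33469 rat promoters of the same length, 9.22% held this motif. Neither held TTCNNNGAA, the STAT motif, which 7.67% of promoters hold, nor TATAAA, which 12.9% hold. Motifs of the interferon-stimulated response element (3.41% of promoters), the NF-kappaB site (4.36%) and the glucocorticoid response element (0.373%) were also without a match on either strand. These are matches of letters and were not tested as binding sites.

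The 6 genes were expressed in every library, at levels that spanned a wide range. C1r was the most abundant, with a mean of 296 FPKM over the 12 libraries, and ranked 146 among the 11611 records. C1s followed at 69.4 FPKM (rank 749). Serping1 stood at 20.7 FPKM, C3 at 17.4 FPKM and C2 at 15.2 FPKM. Cd59 was the lowest at 4.57 FPKM (rank 7118). C1r alone made up 68.2% to 71.8% of the summed FPKM of the 6 genes in a library. The library-to-library spread was small. The coefficient of variation over all 12 libraries was 5.18% for C1r, 6.84% for C3, 8.58% for C1s, 10.2% for C2, 11.0% for Serping1 and 11.7% for Cd59. Of the records tested, 2.29% varied less than C1r and 35.4% varied less than Cd59.

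**Figure D1:**
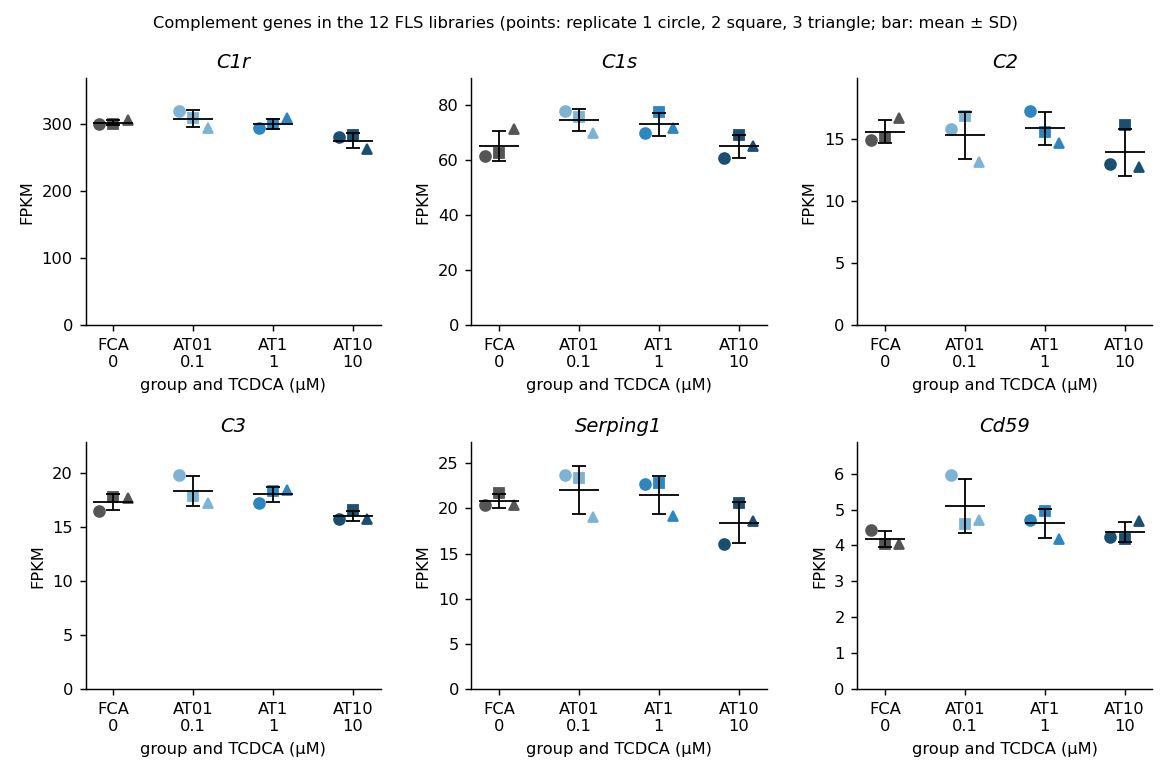
FPKM of each of the 6 complement genes (y axis, from 0) in the 12 libraries, by group and TCDCA dose in µM (x axis). Points are libraries, with circle, square and triangle for replicates 1, 2 and 3, and bars give mean ± SD (n = 3). C1r at 10 µM (262.26 to 282.51 FPKM) sits below every other group, while C2 and Serping1 overlap between all groups.

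C1r codes for the protease that activates first within the C1 complex. In the untreated FCA libraries C1r was at 298.67, 299.23 and 305.96 FPKM. At 0.1 µM TCDCA it was at 319.29, 308.95 and 293.73 FPKM, and at 1 µM at 293.04, 299.05 and 307.94 FPKM. At 10 µM it was at 279.62, 282.51 and 262.26 FPKM. The 10 µM libraries were all below every library of the other 3 groups, which overlapped one another. The mean was 301 ± 4.06 FPKM (SD, n = 3) in FCA and 275 ± 11.0 FPKM in AT10, a difference of -8.79%. On the log2(FPKM + 1) scale AT10 differed from FCA by -0.13 (SE 0.05, 95% interval -0.26 to -0.002). This did not pass the test after adjustment over all records (limma, adjusted p = 0.414, unadjusted p = 0.0477). The exact permutation p was 0.1, the smallest that 3 libraries against 3 allow. A single exact permutation test over the 4 groups gave p = 0.0106 for C1r, with 72.7% of its spread lying between groups, and limma's F test gave an adjusted p of 0.593. In RefSeq (GRCr8) C1r overlaps a long noncoding RNA, LOC102553847, that has no record under its name, so C1r values may hold reads of both. Of the 7 markers of smooth muscle and pericytes, 5 had a record and none of these was at 0. Their summed level was 313.52 to 417.35 FPKM in FCA, 166.55 to 313.19 FPKM in AT10, 257.13 to 295.2 FPKM in AT1 and 231.88 to 291.89 FPKM in AT01. Most of it was Acta2, which was lower in all 9 TCDCA libraries (125.35 to 255.5 FPKM) than in FCA (263.19 to 370.12 FPKM), while Myh11, Cnn1, Des and Cspg4 overlapped between AT10 and FCA. The part of Acta2 in the C1r difference was not tested.

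C1s codes for the protease that C1r activates, and its gene lies next to C1r on chromosome 4. C1s was at 61.32, 62.68 and 71.44 FPKM in FCA. It was at 77.94, 75.54 and 69.98 FPKM at 0.1 µM, at 69.64, 77.56 and 71.64 FPKM at 1 µM, and at 60.80, 69.21 and 65.03 FPKM at 10 µM. The lower doses held the highest libraries, and FCA replicate 3 overlapped with both of them. C1s in AT10 lay within the FCA range but for replicate 1, and below every AT1 and AT01 library. The differences from FCA were 0.19 log2 in AT01 (95% interval -0.02 to 0.41, limma, adjusted p = 0.722), 0.16 in AT1 (-0.04 to 0.37, adjusted p = 0.482) and -0.00 in AT10 (-0.21 to 0.21, adjusted p = 0.995). None of these passed the test, and the AT1 difference of C1s was 0.06 in the Ballgown-like F test.

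C2 codes for the protein that supplies the protease of the classical C3 convertase. C2 was at 14.93, 15.15 and 16.66 FPKM in FCA and at 12.99, 16.11 and 12.70 FPKM in AT10. In AT1 it was at 17.27, 15.55 and 14.68 FPKM and in AT01 at 15.82, 16.87 and 13.17 FPKM. All 4 groups overlapped, and groups explained 26.1% of the spread in C2, the lowest share of the 6 genes (exact permutation test over the 4 groups, p = 0.462). AT10 differed from FCA by -0.16 log2 (95% interval -0.42 to 0.11, limma, adjusted p = 0.587). The value depended on single libraries: it was -0.26 without AT10 replicate 2 and -0.10 without AT10 replicate 3. In RefSeq (GRCr8) the gene for factor B is the direct neighbour of C2 on chromosome 20, and C2 overlaps Zbtb12, which has its own record with a mean of 3.88 FPKM. The C2 record joins 9 transcripts, 6 of them with Ensembl identifiers. Whether counting kept strands apart is not given in the sources used here, so reads of such overlapping genes may be shared. Whether the C2 record also holds transcripts of factor B, which has no record of its own, was not tested, and every C2 value here carries that limit.

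C3 codes for the protein on which all the pathways meet. C3 was at 16.42, 17.77 and 17.64 FPKM in FCA. It was at 19.82, 17.87 and 17.16 FPKM in AT01, at 17.24, 18.32 and 18.41 FPKM in AT1, and at 15.73, 16.58 and 15.69 FPKM in AT10. The AT10 libraries were below every AT1 and AT01 library, and AT10 replicate 2 overlapped with FCA. AT10 differed from AT1 by -0.16 log2 (SE 0.06, 95% interval -0.31 to -0.01), which did not pass after adjustment (limma, adjusted p = 0.748, unadjusted p = 0.0382). AT10 differed from FCA by -0.10 log2 (95% interval -0.26 to 0.05, limma, adjusted p = 0.538). The exact permutation test over the 4 groups gave p = 0.0414 for C3 with 61.6% of its spread between groups. For C1s the same exact permutation test gave p = 0.0778, and limma's adjusted p over the 4 groups was 0.613 for C3 and 0.605 for C1s. These exact p-values were not adjusted over the 6 genes.

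Serping1 codes for C1 inhibitor, the plasma protein that shuts off C1r and C1s. Serping1 was at 20.34, 21.71 and 20.37 FPKM in FCA and at 16.02, 20.54 and 18.61 FPKM in AT10. In AT1 it was at 22.67, 22.78 and 19.11 FPKM and in AT01 at 23.73, 23.34 and 19.01 FPKM. Replicates of each dose were spread more widely than FCA, and the groups overlapped. AT10 differed from FCA by -0.18 log2 (95% interval -0.42 to 0.07, limma, adjusted p = 0.529), and from AT01 by -0.25 (-0.57 to 0.08, adjusted p = 0.867). Without AT10 replicate 1, the lowest library, these were -0.08 and -0.16.

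Cd59 codes for the membrane-bound inhibitor of the attack complex. Cd59 was at 4.44, 4.04 and 4.05 FPKM in FCA, and at 4.24, 4.18 and 4.68 FPKM in AT10. It was at 4.71, 4.97 and 4.17 FPKM in AT1 and at 5.97, 4.61 and 4.72 FPKM in AT01. The AT01 libraries were all above FCA, and the other doses overlapped with FCA. AT01 differed from FCA by 0.23 log2 (95% interval -0.05 to 0.51, limma, adjusted p = 0.737; exact permutation p = 0.1). Without AT01 replicate 1, the highest library of all, this difference was 0.13.

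None of the 6 genes was called in any comparison, either by a limma adjusted p below 0.05 or by the cut-off the study used, which asks for an unadjusted p below 0.05 together with a log2 change beyond 1 or -1. Over all records tested, 0.172% were called by adjusted p at 10 µM, 0.0947% at 1 µM and 0.0947% at 0.1 µM, each against FCA. By the study's cut-off the shares were 0.706%, 0.62% and 0.758%. At an unadjusted p under 0.05, 1 of the 6 genes (C1r, lower) passed in AT10 against FCA, where 11.9% of all records passed in either direction, and 0 of 6 passed in AT1 (11% of all records) or AT01 (6.6%). Of the 18 intervals of the 6 genes against FCA, the lowest bound was -0.42 and the highest 0.51 log2, so none reached a change of 1 log2 unit in either direction. Only the interval of C1r in AT10 excluded 0. With the 9 TCDCA libraries pooled as one group against FCA, the 6 differences ran from -0.06 to 0.13 log2 and their intervals from -0.26 to 0.32. No gene passed there either (limma, adjusted p from 0.548 to 0.968), beside 0.0258% of all records by adjusted p and 0.491% by the study's cut-off, and 0 of 6 passed at an unadjusted p under 0.05 (12% of all records). In limma's F test over the 4 groups 0 of 6 passed by adjusted p (0.0431% of all records) or at an unadjusted p under 0.05 (8.57%). These comparisons share the same 3 FCA libraries.

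**Figure D2:**
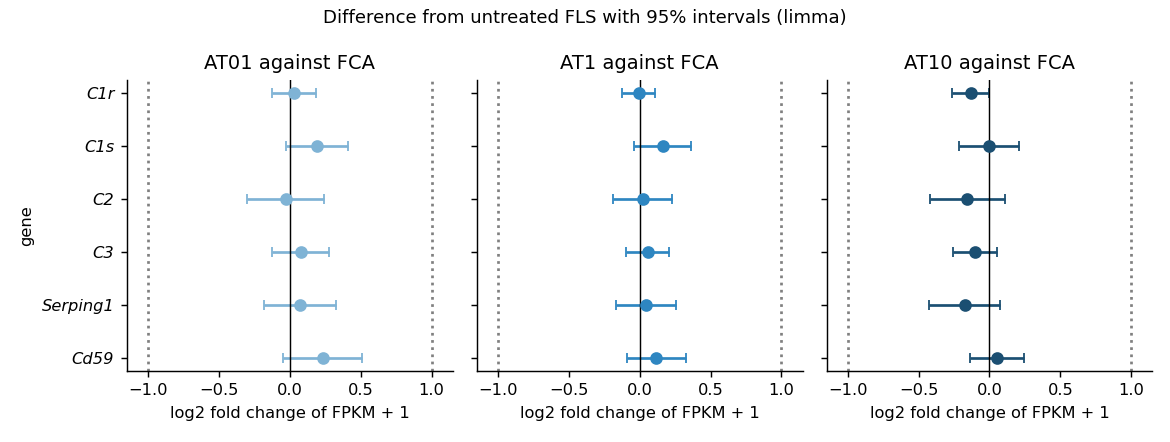
Difference from untreated FLS for the 6 complement genes (rows) in AT01, AT1 and AT10, as the log2 fold change of FPKM + 1 (x axis). Points are limma estimates with 95% intervals, and dotted lines mark a change of 1 log2 unit. All 18 intervals lie between -0.42 and 0.51, and 1 of them, C1r in AT10, excludes 0.

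The doses were also set against one another. AT10 was below AT1 without overlap in 3 of the 6 genes (C3, C1r and C1s), where 8.16% of all records showed this. The same 3 genes were below AT01 without overlap, where the share of all records was 6.47%. Against FCA, 1 of 6 (C1r) was lower in AT10 without overlap (9.18% of all records) and 1 of 6 (Cd59) was higher in AT01 (5.97% of all records). The differences between AT10 and AT1 were -0.16 log2 for C3, -0.13 for C1r, -0.16 for C1s, -0.18 for C2, -0.22 for Serping1 and -0.06 for Cd59. None passed (limma, adjusted p from 0.748 to 0.869), beside 0.258% of all records. In AT10 against AT01 none passed beside 0.0689%, and in AT1 against AT01 none beside 0.129%. By the study's cut-off none was called in these 3 comparisons, beside 0.594%, 0.672% and 0.568% of all records. At an unadjusted p under 0.05, C3 was the 1 of 6 that passed in AT10 against AT1 (6.46% of all records), and 0 of 6 passed in AT10 against AT01 (4.97%) or AT1 against AT01 (3.43%). The median of the 6 differences between AT10 and AT1 was -0.16 log2, beside -0.01 over all records tested. Between AT10 and FCA the median was -0.12, beside -0.01. AT10 had the lowest group mean in 5 of the 6 genes, where 27.7% of all records had AT10 lowest. The genes share libraries, so these counts are not independent of one another.

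The order of the group means was AT01, AT1, FCA, AT10 from high to low for C3, C1s and Serping1. For C1r it was AT01, FCA, AT1, AT10, and for C2 it was AT1, FCA, AT01, AT10. Cd59 ran AT01, AT1, AT10, FCA. Neighbours in these orders overlapped in their libraries, except AT1 and AT10 of C1r. No gene's means rose or fell in step from FCA through the 3 doses, and among the treated groups the means decreased from 0.1 to 10 µM for every gene but C2. AT10 replicate 1 had 0 of 6 genes above their own 12-library mean, and AT01 replicates 1 and 2 and AT1 replicate 2 had 6 of 6. The mean deviation of the 6 genes was -0.17 log2 in AT10 replicate 1 and 0.18 in AT01 replicate 1.

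The levels of the genes varied together across libraries. Over the 12 libraries, the Pearson correlation of log2(FPKM + 1) was positive in 15 of 15 pairs, with a median of 0.576, while the median over all pairs of tested records was 0.0065 and 50.7% were positive. By Spearman's rho the median was 0.469 and 14 of 15 pairs were positive. C3 and C1r had the highest correlation (Pearson's r = 0.874, Spearman's rho = 0.888). The r of this pair was 0.806 without the 2 libraries farthest from the C3 median. C2 and Serping1 followed at 0.792 and C3 and C1s at 0.777. Cd59 was the least tied to the others, with r from 0.06 with C2 to 0.57 with C1s. With 1 library left out, its r fell as low as 0.009 with C3 and -0.17 with C1r. After each value was centred on its group mean, the median was 0.444 and 15 of 15 pairs stayed positive, with C2 and Serping1 the highest at 0.758. The lowest were Cd59 with C1r (0.006) and with C2 (0.010). Over all pairs of tested records the centred median was 0.0095 and 50.9% were positive. The pairs share libraries and their sequencing depth, and the correlations are a description of these 12 libraries.

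**Figure D3:**
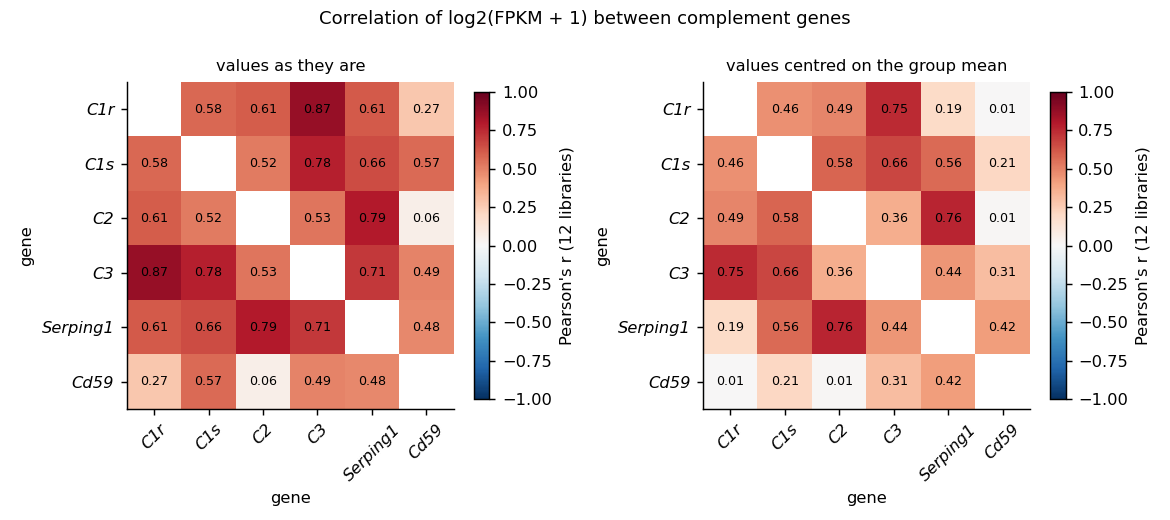
Pearson's r of log2(FPKM + 1) between each pair of the 6 complement genes over 12 libraries, as values stand (left) and after centring on the group mean (right), on a colour scale from -1 to 1. C3 with C1r is highest on the left (0.874) and C2 with Serping1 on the right (0.758), and Cd59 has the palest cells on both.

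The records closest in pattern were sought among 4295 named records of 10 FPKM or more on average. They were Klhdc4 (r = 0.904) and Hadha (0.901) for C3. For C1r they were Fuca1 (0.884) and Mpv17l2 (0.880), and for C1s Ctnna1 (0.907) and Sod2 (0.862). C2 was closest to Mocs2 (0.818) and Idh2 (0.796), and Serping1 to Rarres2 (0.909) and Atp5o (0.874). For Cd59 they were AABR07063424.1 (0.882) and 5_8S_rRNA (0.880). No member of the 6 complement genes was among the 2 nearest of another. Cd59, at 4.57 FPKM, was below the limit of 10 FPKM and could not have been found. Each is the top of 4295 correlations over 12 libraries and carries no test.

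The C1r and C1s proteins pair in the C1 complex, so the ratio of their levels was taken in each library. FPKM is scaled by transcript length, which allows a ratio between genes. The C1r to C1s ratio was 4.87, 4.77 and 4.28 in FCA and ran from 3.86 to 4.60 over the 9 TCDCA libraries. The first 2 FCA libraries were the highest of all 12, and the third FCA library lay among the treated ones. The geometric mean was 4.64 in FCA, 4.23 in AT10, 4.12 in AT1 and 4.13 in AT01. TCDCA differed from FCA by -0.16 log2 (two-sided exact permutation test, p = 0.0136, adjusted p = 0.0273 over 2 ratios). Over the 4 groups the exact permutation test gave p = 0.101. The difference was smaller without FCA replicate 1 (-0.12) or FCA replicate 2 (-0.14), with an exact permutation p of 0.0545 each. Leaving out an FCA library leaves fewer splits, so these p-values are coarser than the one over all 12 libraries. The Serping1 to C1r plus C1s ratio ran from 0.0471 to 0.0625 over the 12 libraries, and TCDCA differed from FCA by -0.01 log2 (exact permutation test, p = 0.877).

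**Figure D4:**
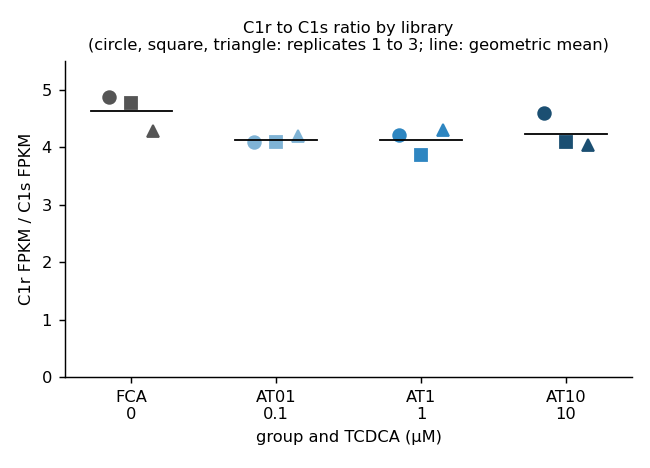
C1r FPKM divided by C1s FPKM (y axis, from 0) in each of the 12 libraries, by group and TCDCA dose in µM (x axis). Circle, square and triangle are replicates 1, 2 and 3 and lines are geometric means. FCA has the highest mean (4.64), with 1 of its 3 libraries (4.28) within the range of the treated ones.

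The rest of the pathway was described from a list of 56 complement genes, of which 43 had a record and 18 passed the filter, the 6 above included. None of the 18 was called by adjusted p or by the study's cut-off in any comparison. At an unadjusted p under 0.05, 5 of 18 passed in AT10 against FCA, 2 in AT1 and 0 in AT01, beside the shares of all records given above. C1qa, C1qb and C1qc, the genes of the C1q recognition protein, and the anaphylatoxin receptors C3ar1 and C5ar1 had no record under their names and were not analysed here. In the terminal pathway, 5 of 7 genes had a mean under 1 FPKM. The 7 terminal genes together reached 1.71 to 4.38 FPKM in a library.

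**Figure D5:**
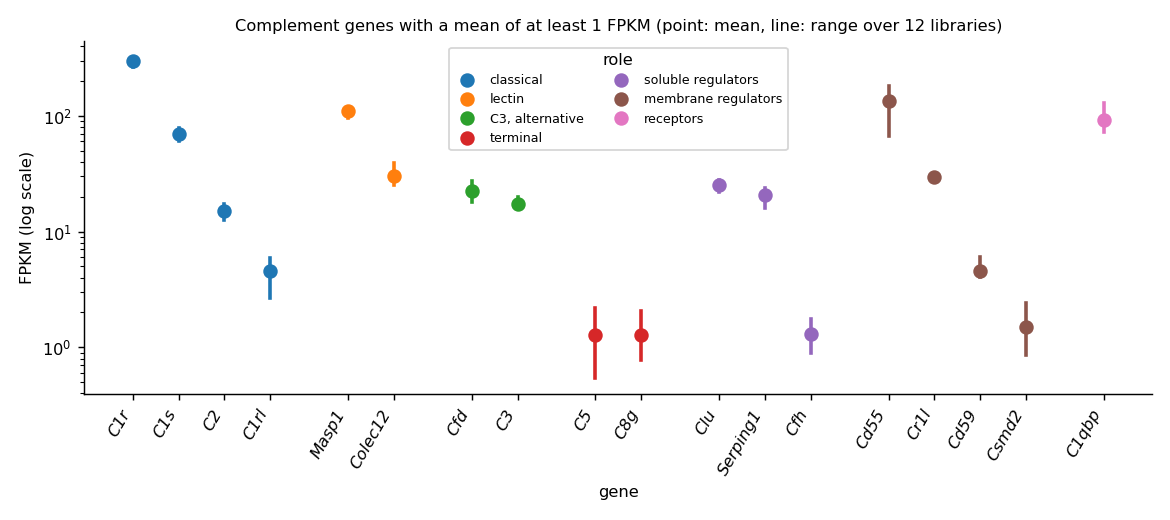
Level of the 18 complement genes averaging 1 FPKM or more (y axis, FPKM on a log scale), in order of their role along the pathway (x axis and colours). Points are means and lines the range over the 12 libraries. C1r (296 FPKM), Cd55 (133 FPKM) and Masp1 (110 FPKM) are the highest, and the terminal genes C5 and C8g are near the filter.

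Masp1, a protease that serves the lectin pathway as C1r and C1s serve the classical one, was at 116.15, 111.79 and 113.71 FPKM in FCA and at 106.56, 98.94 and 94.86 FPKM in AT10. The AT10 libraries were all lower, and the difference of -0.19 log2 (SE 0.06) did not pass adjustment (limma, adjusted p = 0.355, unadjusted p = 0.026). Colec12, a scavenger receptor of the collectin family, was at 27.66, 29.11 and 29.47 FPKM in FCA and at 32.55, 32.05 and 38.80 FPKM in AT1. The groups did not overlap, and the difference of 0.25 log2 did not pass adjustment (limma, adjusted p = 0.433) and was 0.16 without AT1 replicate 3.

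Cfd codes for factor D, the protease that cuts factor B. Cfd was at 23.74, 27.29 and 27.25 FPKM in FCA, and the 9 TCDCA libraries ran from 17.94 to 23.48 FPKM with no overlap. The lowest and the highest of these 9 were both at 0.1 µM. TCDCA differed from FCA by -0.29 log2 (SE 0.08, 95% interval -0.47 to -0.12), and the two-sided exact permutation p of 0.00455 is the smallest that 9 libraries against 3 allow. It did not pass over all records (limma, adjusted p = 0.295), among which 1.9% had all 9 libraries below FCA. By dose the difference in Cfd was -0.31 log2 in AT10, -0.28 in AT1 and -0.28 in AT01. Without AT01 replicate 3 the last of these was -0.17.

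Among the regulators, Cd55, which speeds the decay of C3 convertases on cells, was at 106.23, 104.48 and 124.54 FPKM in FCA and at 153.71, 179.43 and 149.75 FPKM in AT10. All 3 AT10 libraries were higher, and the difference of 0.52 log2 (SE 0.11, 95% interval 0.26 to 0.78) did not pass adjustment (limma, adjusted p = 0.177, unadjusted p = 0.00296). Cd55 ran from 67.3 to 180.73 FPKM within AT01 alone. With 1 fit over all 12 libraries the SE of the AT10 difference was 0.29 and the unadjusted p 0.0971 (limma). Over the 4 groups limma's F test gave an unadjusted p of 0.336 for Cd55. Its name had 2 records, and the one with the higher mean was used. Clu, a chaperone that holds back the attack complex, was lower in all 3 AT10 libraries than in FCA, with a difference of -0.19 log2 (limma, adjusted p = 0.364). Cr1l, a rodent membrane regulator, was between 26.98 and 32.36 FPKM over the 12 libraries, with all AT1 libraries above FCA. C1qbp, which binds C1q, ran from 72.6 to 129.01 FPKM, with all AT10 and all AT01 libraries below FCA. Neither passed adjustment in a comparison with FCA (limma). Of the 18 complement genes, 5 were lower in AT10 than in FCA without overlap (9.18% of all records) and 1 was higher. In AT1, 1 was lower and 2 were higher. In AT01, 2 were lower and 1 was higher (5.97% of all records were higher). Shares of all records for the other directions are not given here, and the genes share libraries.

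Of the 12 transcription factors listed for complement genes, all 12 passed the filter and none had an adjusted p under 0.05. Cebpb, a C/EBP factor, was the only one past the study's cut-off. At an unadjusted p under 0.05 (limma), 0 of 12 passed in AT10 against FCA (11.9% of all records). In AT1 it was 2 of 12 (11%) and in AT01 1 of 12 (6.6%), all of them higher. Cebpb was at 3.37, 2.86 and 2.13 FPKM in AT10. It was at 1.63 and 2.71 FPKM in 2 FCA libraries and listed at 0 in the other. It was at 1.17 FPKM in AT1 replicate 2 and at 2.05 FPKM in AT01 replicate 2, and listed at 0 in the other 2 libraries of each. AT10 differed from AT1 by 1.53 log2 (limma, unadjusted p = 0.00486, adjusted p = 0.513) and from AT01 by 1.37 (unadjusted p = 0.0273, adjusted p = 0.867). With 1 library left out, the adjusted p of AT10 against AT1 was as low as 0.0462 (limma). Leaving out AT1 replicate 2 left only values listed at 0 in AT1, with no spread among them. The sizes depend on the pseudocount, and with 0.1 in place of 1 they were 3.61 and 3.35. A 0 in these values may be a failed estimate, since only FPKM is given.

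The labelled cell type was checked against its markers. Of 15 FLS markers, 13 had a record and all 13 passed the filter, with Dcn at 1273 FPKM, Col3a1 at 853 FPKM, Thy1 at 138 FPKM and Prg4 at 32.5 FPKM. Thy1 was lower in all 9 TCDCA libraries (146.29 FPKM or less) than in FCA (151.7 or more), as were 1.9% of all records. Lum was higher in all 9 (695.38 FPKM or more, against 625.06 or less). So were Fap (12.49 or more, against 12.3 or less) and Vcam1 (4.01 or more, against 3.64 or less). The share of all records for that direction is not given here. The other FLS markers with a record overlapped. The part of these markers in the complement differences was not tested. Macrophage markers had a record in 9 of 16 cases, of which 7 were under 1 FPKM, and Aif1, Adgre1 and Mrc1 were at 0 or close to it. Their summed level was 7.02 to 22.2 FPKM in FCA, 18.95 to 21.7 FPKM in AT10, 5.99 to 17.99 FPKM in AT1 and 7.39 to 20.7 FPKM in AT01, most of it Cd14. Cd14 stood at 2 separate levels, at most 4.6 FPKM in FCA replicate 3, AT1 replicate 1 and AT01 replicate 1 and 15.7 to 18.82 FPKM in the rest. Cd68 was at 1.77 to 2.91 FPKM in AT10 and at 1.66 to 1.98 FPKM in AT1, with overlap. All AT10 libraries were above all AT1 libraries in the sum, and its part in the differences of C3, C1r and C1s between them was not tested. Endothelial and lymphocyte markers with a record were all under 1 FPKM. In bulk libraries such as these, fewer cells of a type and less RNA per cell cannot be told apart.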

How the data were processed

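RNA from the 12 FLS libraries was sequenced after poly(A) selection. The authors deposited 1 table of FPKM per assembled gene, with 12 value columns. Per the study's methods it was made with HISAT2 2.0.4, StringTie 1.2.4 and Ballgown 2.6.0, and the submitters' processing notes also name cutadapt and edgeR. The genome build is not given in the sources used here. The FPKM values per library sum to 284210 to 309696. The table holds no counts, so the number of fragments behind each value is unknown and no counting interval was given. The study lists the reads of each library, with the most in AT01 replicate 3, and the part of depth in the differences was not tested.

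log2(FPKM + 1) was compared with limma 3.58.1 (R 4.3.3) on the groups compared, for records averaging 1 FPKM or more, with Benjamini-Hochberg adjustment over all 11611 records. Exact permutation tests over libraries (NumPy 2.4.6) were two-sided except those over the 4 groups. SciPy 1.17.1 gave Spearman's rho and the adjustment over the ratios. A pseudocount of 1 understates changes of low genes. The text names the 6 genes, the 2 records most like each of them, and other listed genes at 10 FPKM or more (complement genes) or past a call threshold. The genes and lists were chosen with earlier results of these data known. The Cfb to C3 ratio was not computed, since Cfb had no record, and p-values were adjusted over the 2 ratios left. Alternatives were another pseudocount, filters, scaling, tests, a replicate block and leaving out each library.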

Additional observations from a re-analysis of the deposited data

Results flagged for a closer look

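Cd59 in AT01 replicate 1 stood apart from the other TCDCA libraries. It was at 5.97 FPKM, and its gap to the next of the 9 libraries was 0.556 of their whole range, above Dixon's 95% critical value for 9 samples. That value assumes 1 uniform sample, while the 9 libraries pool 3 doses with Cd59 means of 5.10 (AT01), 4.62 (AT1) and 4.37 FPKM (AT10). Cd59 was the only one of the 6 genes with such a library at either end, and chance alone marks about 1 group in 20. The same library was above the mean of all 12 in 6 of 6 genes.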

How the results depend on the processing

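Only FPKM values were used, so counting error is not known, and with 3 libraries a group the differences have wide intervals. None of the 6 genes was called by adjusted p or by the study's cut-off under any alternative, nor was any of the 18 complement genes. For C1r, AT10 against FCA, the unadjusted p of 0.0477 (limma) became 0.0561 with median-of-ratios scaling and 0.0614 to 0.122 without 1 library, with a difference of -0.15 to -0.10 log2. The lowest unadjusted p of any setting was 0.0230, in the Ballgown-like F test, where the adjusted p was 0.336. The replicate numbers did not pair the libraries: deviations of same-numbered libraries correlated from -0.105 to 0.0942. With the replicate block no call changed, with 0 genes called, and C1r, AT10 against FCA, stayed at -0.13 log2 with an unadjusted p of 0.109 (limma).

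Small differences turned sign. In the test made in the manner of Ballgown, C2 and Serping1 in AT1 against FCA became -0.045 and -0.017 log2, Cd59 in AT10 against AT1 became 0.0015, C2 in AT1 against AT01 became -0.020 and C3 in TCDCA against FCA became -0.0027. This test fits the same values with an added term for the summed log2(FPKM + 1) of each library, and the differences change only through that term. With 1 library left out, C1s in AT10 against FCA ran from -0.047 to 0.066, C1r in AT1 against FCA from -0.025 to 0.010 and in AT01 against FCA from -0.00012 to 0.060. C2 ran from -0.040 to 0.070 in AT1 and from -0.10 to 0.066 in AT01 against FCA. In AT1 against AT01 the ranges were -0.062 to 0.036 for C3, -0.074 to 0.0032 for C1s, -0.045 to 0.12 for C2 and -0.13 to 0.050 for Serping1. In TCDCA against FCA they were -0.025 to 0.029 for C3 and -0.045 to 0.022 for Serping1. The log2 difference of the C1r to C1s ratio ran from -0.21 to -0.12, and its exact permutation p passed after adjustment except without FCA replicate 1 or FCA replicate 2. Leaving out an FCA library leaves fewer splits, which makes that p coarser. The log2 difference of the Serping1 to C1r plus C1s ratio ran from -0.050 to 0.027. The median correlation between the 6 genes ran from 0.519 to 0.624.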
